A study of Mus musculus with 7 samples.

Results

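The genes for the β-cell hormones insulin and amylin, and for the proteins that cut, trim, amidate and dock them, were followed in RNA-seq libraries of sorted mouse β-cells. The members are the 10 genes Ins1, Ins2, Iapp, Pcsk1, Pcsk2, Pcsk1n, Cpe, Scg5, Pam and Sytl4, taken by their symbols from a table of 35013 gene symbols. The libraries come from 3 groups of mice, with 1 library per mouse. Aldh1a3 KO_db/db mice (n = 2) were Lepr db/db and Aldh1a3 fl/fl. The db/db mice (n = 2) were Lepr db/db and Aldh1a3 fl/+, and the lean db/+ mice (n = 3) were Lepr db/+ and Aldh1a3 fl/+. All 3 groups carried the transgene RIP-Cre Herr, in which the rat insulin promoter drives Cre, 1 copy of the floxed reporter allele tdT (tdT fl/+) and at least 1 floxed Aldh1a3 allele, and the knockout was restricted to cells in which the insulin promoter had driven Cre. The labels give neither age nor sex of a mouse, and the methods describe adult mice of both sexes. Per the methods, mice were fasted before the islets for sorting and RNA-seq were isolated, so the levels below are not those of fed mice. The design compares obese diabetic with lean β-cells, and asks what deletion of Aldh1a3, the gene of a retinaldehyde dehydrogenase induced in failing β-cells, does to β-cells of db/db mice.

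Insulin is made as a precursor, proinsulin, that is folded in the endoplasmic reticulum and cut inside the acidifying secretory granule. The mouse has a pair of insulin genes, of which Ins2 is the ancestral gene and Ins1 a retroposed copy. The prohormone convertases PC1/3 (Pcsk1) and PC2 (Pcsk2) cut after pairs of basic amino acids, carboxypeptidase E (Cpe) removes the basic residues left behind, and the amidating monooxygenase (Pam) finishes hormones that end in an amide, such as amylin (Iapp). ProSAAS (Pcsk1n) is an inhibitor of PC1/3, secretogranin V or 7B2 (Scg5) is a chaperone that PC2 needs, and granuphilin (Sytl4) is a Rab27 effector that docks insulin granules at the plasma membrane.

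The cleavage sites are shown because they are what the convertases act on, and they show how alike the insulin genes are around them. Each line gives 30 bases of coding sequence from GRCm38, on the strand of the gene, with the codons of the basic pair in capitals. In Ins1 the arginine pair lies at residues 55 and 56 (chr19:52264774-52264803, plus strand) and the lysine-arginine pair at residues 86 and 87 (chr19:52264867-52264896). In Ins2 the same pairs lie at residues 55 and 56 (chr7:142679354-142679383, minus strand) and at residues 88 and 89 (chr7:142678767-142678796). In Iapp the pairs flanking amylin lie at residues 36 and 37 (chr6:142303316-142303345, plus strand) and at residues 76 and 77 (chr6:142303436-142303465).
Ins1, residues 55 and 56: acacccaagtccCGCCGTgaagtggaggac
Ins2, residues 55 and 56: acacccatgtccCGCCGTgaagtggaggac
Ins1, residues 86 and 87: gtggcccggcagAAGCGTggcattgtggat
Ins2, residues 88 and 89: gtggcccagcagAAGCGTggcattgtagat
Iapp, residues 36 and 37: cctcagatggacAAACGGaagtgcaacacg
Iapp, residues 76 and 77: aatacatatggcAAGAGGaatgcggcaggg
The basic codons of Ins1 and Ins2 are spelled alike at both sites, and Iapp spells the arginines of its pairs with other codons, while the lysine codon of its second pair is that of the insulin genes.

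How far reads can be told apart between Ins1 and Ins2 bears on every value of these genes. Their coding sequences matched at 300 of 330 aligned positions (90.9%) and their translations at 97 of 110 (88.2%). Of the stretches of 60 bases aligned without a gap, none differed at more bases than the first 60 coding bases. These are shown with the 10 differing bases in capitals (Ins1 at chr19:52264624-52264683, plus strand, and Ins2 at chr7:142679474-142679533, minus strand).
Ins1, coding bases 1 to 60: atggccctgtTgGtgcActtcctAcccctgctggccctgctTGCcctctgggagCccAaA
Ins2, coding bases 1 to 60: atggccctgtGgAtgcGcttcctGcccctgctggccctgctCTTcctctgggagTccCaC
The longest run without a difference was 54 bases. Of the words of 31 bases by which kallisto places a read, 45 were shared within the coding sequences, which is 15.3% of those of Ins1 and 15.0% of those of Ins2. Over the whole transcripts, to which kallisto assigns reads, 47 were shared, or 4.55% of 1032 words for Ins1 and 3.27% of 1438 words for Ins2. Reads within shared stretches were divided between the genes by estimation, so the split between Ins1 and Ins2 is less certain than their sum.

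The libraries held 27496645 to 35852785 estimated counts, and a level is given as CPM, counts per 1000000 after TMM scaling. At this depth 3 counts, taken as the limit of detection, equal 0.0721 to 0.123 CPM, far below each of the 10 genes. Aldh1a3 was at 0.0727 to 0.584 CPM in db/+, at 99.3 and 195 CPM in db/db and at 4.93 and 7.90 CPM in KO_db/db. β-cell markers other than the members summed to 9335 to 10359 CPM in db/+, 2961 to 3138 CPM in db/db and 4114 to 5338 CPM in KO_db/db. Acinar markers (40 genes) took 1.96% and 17.3% of the counts in KO_db/db, at most 0.0560% in db/db and at most 0.0328% in db/+. The KO_db/db library with 17.3% is that of mouse 1, and 36 of the 37 acinar markers tested rose in KO_db/db against db/+. In KO_db/db against db/db none of the 38 tested passed the same test, although their median log2 fold change was 8.15. A gene is called below where its Benjamini-Hochberg adjusted p over all genes tested was under 0.05. The test is the quasi-likelihood test of edgeR, fitted to 2 groups at a time. SE is the standard error of a log2 fold change, taken as its absolute value over the square root of the test's F statistic. Without TMM factors the median log2 fold change of all genes moved from 0.01 to 0.50 in db/db against db/+, from 0.00 to 0.21 for KO_db/db against db/+ and from -0.02 to -0.28 for KO_db/db against db/db. The share of higher genes among those called then moved from 52.5% to 88.2%, from 53.4% to 82.0% and from 39.5% to 27.6%. Changes below are therefore relative to the typical gene. In sorted cells pooled for RNA, fewer cells of a type and less RNA per cell cannot be told apart.

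In db/db β-cells both insulin genes, Pcsk1 and Sytl4 fell against db/+, while Scg5 and Pam rose. Iapp, Pcsk2, Pcsk1n and Cpe did not pass the test. The call thus fell on 6 of 10 members, where 37.8% of the 13406 genes tested were called. The db/db and db/+ libraries did not overlap for 8 of the 10, beside 63.1% of all genes tested. In KO_db/db against db/+, Ins1, Pcsk1 and Sytl4 fell and no member rose, which is 3 of 10 called beside 38.4% of all genes tested. Groups did not overlap for 5 of the 10, beside 64% of all genes. In KO_db/db against db/db no member was called in edgeR, where 0.319% of the genes tested were called. That test also called none of the acinar markers, despite their large fold changes, so a gene without a call there may still differ. There, 3 members (Scg5, Pam and Sytl4) had an unadjusted p under 0.05, and DESeq2 called these 3. Groups did not overlap for 9 of the 10, beside 57.5% of all genes. The median log2 fold change of the 10 members was 0.03, -0.04 and 0.01 in these comparisons, beside 0.01, 0.00 and -0.02 over all genes tested. The knockout and db/db were each set against the same 3 db/+ libraries, and the knockout was also set against the same db/db libraries.

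**Figure D1:**
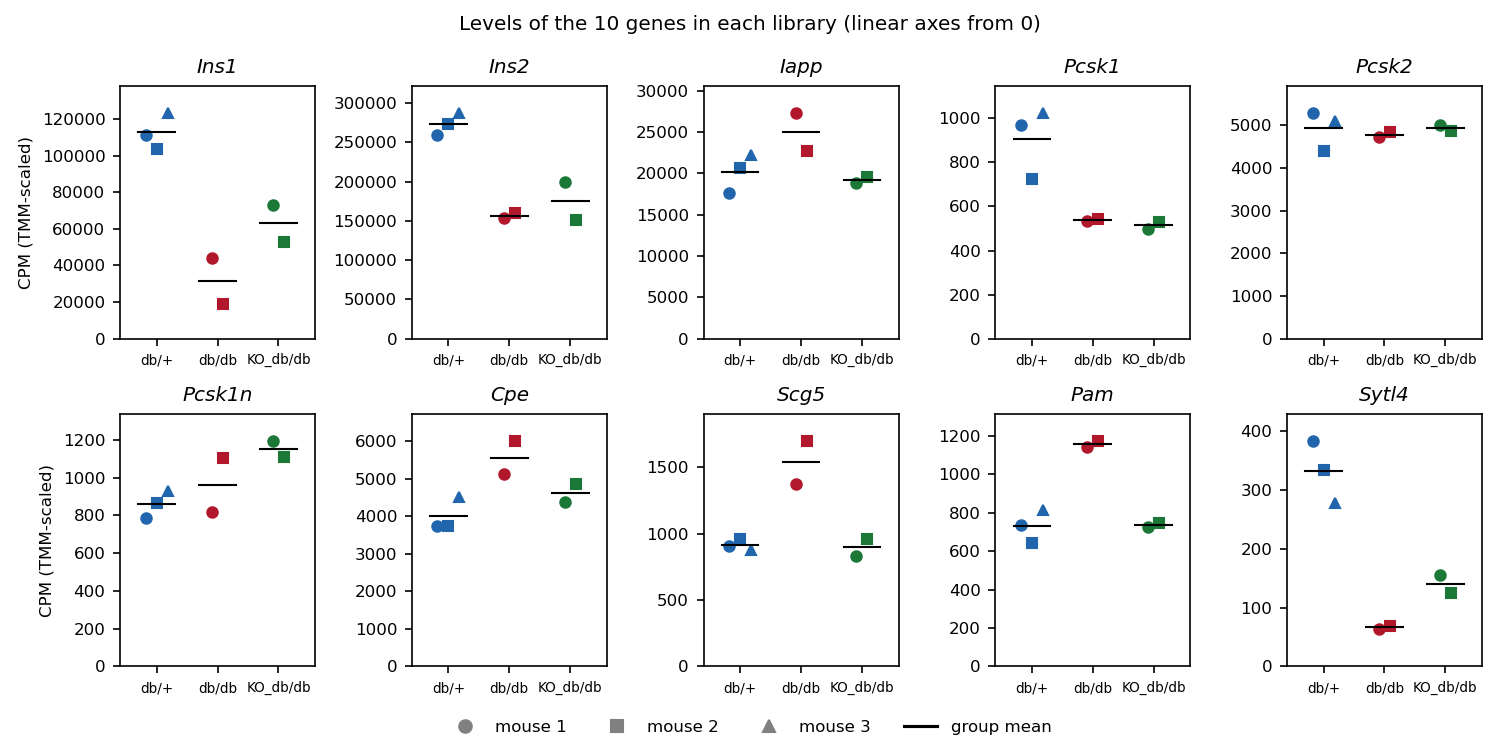
TMM-scaled CPM (vertical axes, linear from 0) of the 10 genes in the 7 libraries, by group; each symbol is 1 mouse and the line is the group mean. The 3 db/+ points lie above all 4 points of the Lepr db/db mice for Ins1, Ins2, Pcsk1 and Sytl4, and the 2 db/db points lie above all others for Scg5 and Pam.

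Ins2 was the most abundant transcript of every library. It was at 259717, 273108 and 287244 CPM in the 3 db/+ libraries, at 153659 and 159470 CPM in db/db, and at 200022 and 151165 CPM in KO_db/db. Both obese groups lay below every db/+ library, and the db/db values fell between the KO_db/db values. Ins2 was 1.78-fold lower in db/db than in db/+ (log2 fold change -0.83 ± 0.26 SE, adjusted p = 0.0429), a call that was lost without db/db mouse 2 (adjusted p = 0.0543), db/+ mouse 1 (0.209) or db/+ mouse 2 (0.164). In KO_db/db the log2 difference from db/+ was -0.63 ± 0.21 SE (adjusted p = 0.0518), and it passed without KO_db/db mouse 1 (-0.86, adjusted p = 0.00566) and without db/+ mouse 3 (-0.59, adjusted p = 0.0366). It also passed in DESeq2 (adjusted p = 6.75e-05), without the filter on low counts (0.0443) and with all 7 libraries in one fit (0.0495). Between KO_db/db and db/db the log2 difference of Ins2 was 0.18, with a 95% interval from -0.64 to 1.00.

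Ins1 differed more between the groups than Ins2. It was at 111295, 103491 and 123280 CPM in db/+, at 43979 and 18870 CPM in db/db, and at 72993 and 52948 CPM in KO_db/db. The 3 groups did not overlap, with db/+ highest and db/db lowest, and the 2 db/db libraries differed from each other more than the libraries of any other group did. Ins1 was 3.66-fold lower in db/db than in db/+ (log2 fold change -1.87 ± 0.40 SE, adjusted p = 0.0117). This call held in all 13 alternatives with another fit, filter, scaling or a library left out. Ins1 was 1.78-fold lower in KO_db/db than in db/+ (log2 fold change -0.83 ± 0.23 SE, adjusted p = 0.0271), and the call was lost without KO_db/db mouse 2 (adjusted p = 0.268), db/+ mouse 1 (0.147) or db/+ mouse 2 (0.0847). Between KO_db/db and db/db the log2 difference was 1.02 with a 95% interval from -0.20 to 2.24 (adjusted p = 0.297). That difference was 0.53 without db/db mouse 2 and 1.75 without db/db mouse 1. The β-cell markers that are not members moved along with the insulin genes: 10 of 11 fell and 1 rose in db/db against db/+, 9 of 11 fell in KO_db/db against db/+, and 2 of 11 were higher in the knockout than in db/db. None of these markers was at 0, and the part of cell composition in the insulin values was not tested.

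The ratio of Ins1 to Ins2 within a library does not depend on how libraries are scaled. It is a ratio of estimated counts that is not corrected for transcript length. The ratio was 0.429, 0.379 and 0.429 in the db/+ libraries, 0.286 and 0.118 in db/db, and 0.365 and 0.350 in KO_db/db. The groups did not overlap, and the KO_db/db libraries, close to each other, lay between db/db and db/+. As a share of insulin counts, Ins1 made up 27.5% to 30.0% in db/+, 25.9% and 26.7% in KO_db/db, and 22.3% and 10.6% in db/db. The 95% Wilson interval of the lowest share, that of db/db mouse 2, ran from 10.56% to 10.60% and covers counting error only, so the gap between the 2 db/db mice was far larger than counting error. On the log2 scale the mean ratio differed by -1.16 in db/db from that of db/+ and by 0.96 in KO_db/db from that of db/db. With 2 against 3 libraries an exact permutation test cannot go below p = 0.2, and with 2 against 2 it cannot go below 0.333, and both comparisons gave these smallest values. With the 4 Lepr db/db libraries together against the 3 db/+ libraries, the two-sided exact permutation test gave p = 0.0571, the smallest that 35 arrangements allow, and 0.229 after adjustment over the 16 tests of 4 such measures.

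**Figure D2:**
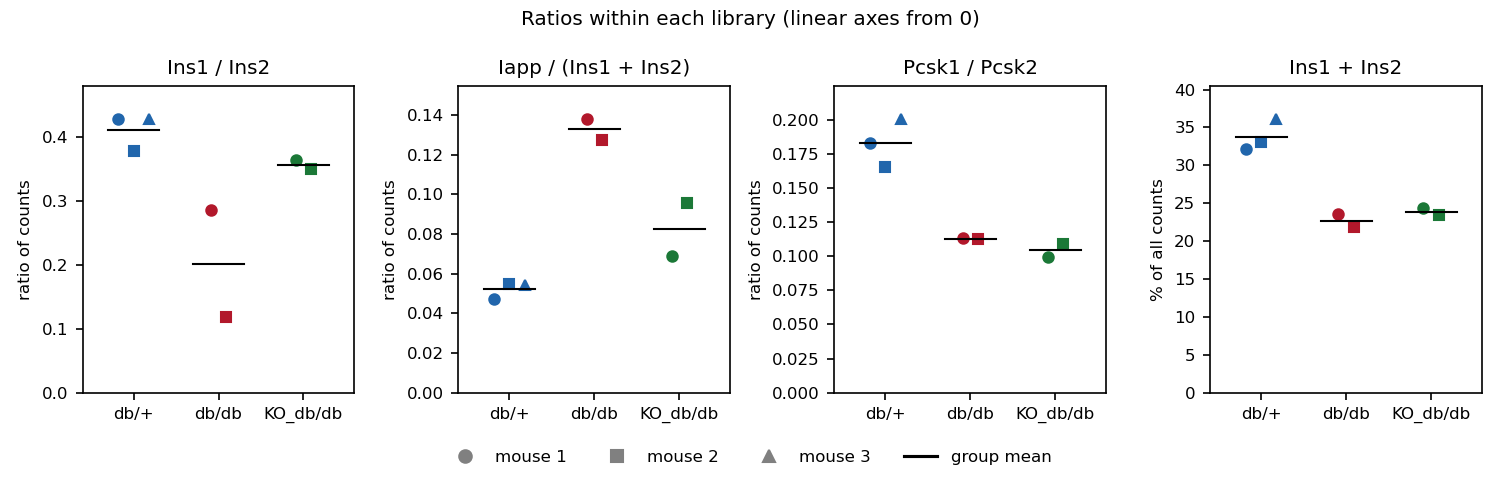
Ratios of estimated counts within each library (first 3 panels) and the percent of all counts on Ins1 and Ins2 (last panel), by group, with linear axes from 0; each symbol is 1 mouse and the line is the group mean. The Ins1 to Ins2 ratio is lowest in db/db (0.286 and 0.118), the Iapp to insulin ratio is highest there (0.138 and 0.127), and the Pcsk1 to Pcsk2 ratio is near 0.1 in all 4 Lepr db/db libraries against 0.165 to 0.201 in db/+.

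Together Ins1 and Ins2 took 32.2%, 33.0% and 36.1% of all counts in db/+, 23.5% and 21.8% in db/db, and 24.4% and 23.4% in KO_db/db. The share was alike in the obese groups although the split between the genes was not. Leaving acinar and Reg genes out of the total raised the share in KO_db/db to 29.6% in mouse 1 and 23.9% in mouse 2, and left those of db/db at 23.6% and 21.8%. The KO_db/db values then lay above both db/db values, and still below every db/+ library. An exact permutation test of KO_db/db against db/db on all counts gave p = 0.667, and the 4 obese against the 3 lean libraries gave p = 0.0571, again the smallest possible.

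Iapp, which encodes the amylin precursor that β-cells store and release with insulin, did not follow the insulin genes. It was at 17591, 20698 and 22268 CPM in db/+, at 27280 and 22736 CPM in db/db, and at 18854 and 19528 CPM in KO_db/db. The db/db libraries lay just above the others, and KO_db/db lay within the range of db/+. The log2 difference of Iapp from db/+ was 0.28 ± 0.21 SE in db/db (adjusted p = 0.324) and -0.07 ± 0.20 SE in KO_db/db (adjusted p = 0.808), and that of KO_db/db from db/db was -0.37 ± 0.27 SE (adjusted p = 0.460). Without TMM factors Iapp was called higher in db/db than in db/+ (0.77, adjusted p = 0.0205), which is 0.27 above the shifted median of all genes. Per 1000 insulin counts, Iapp had 47.4, 55.0 and 54.2 counts in db/+, 138 and 127 in db/db, and 69.1 and 95.7 in KO_db/db. The groups did not overlap in this ratio, and KO_db/db was intermediate. The log2 mean ratio was higher by 1.35 in db/db and by 0.64 in KO_db/db than in db/+, with exact permutation p = 0.2 for each, the smallest possible.

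The convertases behaved unlike each other. Pcsk1 was at 968, 725 and 1024 CPM in db/+, at 533 and 543 CPM in db/db, and at 499 and 531 CPM in KO_db/db. All 4 libraries from Lepr db/db mice lay below all lean libraries, and the knockout lay at the level of db/db or just below it. Pcsk1 was 1.72-fold lower in db/db than in db/+ (log2 fold change -0.78 ± 0.18 SE, adjusted p = 0.0157) and 1.75-fold lower in KO_db/db than in db/+ (-0.81 ± 0.19 SE, adjusted p = 0.0181). The first call was lost without db/db mouse 1 (adjusted p = 0.0521) or db/+ mouse 1 (0.0588). The second was lost without KO_db/db mouse 1 (0.0660), KO_db/db mouse 2 (0.0636) or db/+ mouse 1 (0.0595). Between KO_db/db and db/db the log2 difference was -0.05, with a 95% interval from -0.48 to 0.38, which leaves room for a change of that size in either direction.

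Pcsk2 was at 5283, 4389 and 5106 CPM in db/+, at 4714 and 4836 CPM in db/db, and at 5009 and 4868 CPM in KO_db/db. The obese libraries lay within the range of the lean ones. Its log2 differences were -0.07 in db/db against db/+ (95% interval -0.46 to 0.32), 0.01 for KO_db/db against db/+ (-0.42 to 0.45) and 0.06 for KO_db/db against db/db (-0.51 to 0.63). No alternative called it. The ratio of Pcsk1 to Pcsk2 counts was 0.183, 0.165 and 0.201 in db/+, 0.113 and 0.112 in db/db, and 0.0997 and 0.109 in KO_db/db. On the log2 scale the mean ratio differed from that of db/+ by -0.70 in db/db and by -0.81 in KO_db/db, and KO_db/db differed from db/db by -0.11, each at the smallest p that an exact permutation test of these groups allows.

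The proteins that regulate the convertases did not move together either. Pcsk1n, which encodes the PC1/3 inhibitor proSAAS, was at 785 to 929 CPM in db/+, at 820 and 1102 CPM in db/db, and at 1195 and 1108 CPM in KO_db/db. The KO_db/db libraries were the highest, whereas one db/db library lay within the lean range. The log2 difference of Pcsk1n from db/+ was 0.43 ± 0.16 SE in KO_db/db (adjusted p = 0.0721) and 0.14 ± 0.17 SE in db/db (adjusted p = 0.569), and DESeq2 called the former. Pcsk1n had 0.811 to 1.19 counts per Pcsk1 count in db/+, 1.54 and 2.03 in db/db, and 2.39 and 2.09 in KO_db/db, so that the ratio of inhibitor to target was higher in every obese library than in the lean ones. These counts are not corrected for transcript length, so the values compare libraries and not the genes.

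Scg5, the chaperone of PC2, was at 904, 958 and 880 CPM in db/+, at 1378 and 1701 CPM in db/db, and at 834 and 963 CPM in KO_db/db. The db/db libraries stood above all others, and the KO_db/db libraries lay on both sides of the lean values. Scg5 was higher in db/db than in db/+ (log2 fold change 0.73 ± 0.14 SE, adjusted p = 0.00930), a call that held in all 13 alternatives. In KO_db/db it differed from db/+ by -0.02 (95% interval -0.38 to 0.34) and from db/db by -0.77 (95% interval -1.33 to -0.20, adjusted p = 0.166). Scg5 counts per Pcsk2 count were 0.171 to 0.218 in db/+, 0.292 and 0.352 in db/db, and 0.167 and 0.198 in KO_db/db.

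Pam, the amidating enzyme, followed the same order as Scg5. It was at 737, 644 and 813 CPM in db/+, at 1140 and 1174 CPM in db/db, and at 727 and 747 CPM in KO_db/db. The KO_db/db values lay within the lean range and the db/db values above it. Pam was higher in db/db than in db/+ (log2 fold change 0.63 ± 0.14 SE, adjusted p = 0.0150), and the call was lost without db/+ mouse 1 (adjusted p = 0.0639) or db/+ mouse 2 (0.0557). It differed by 0.02 between KO_db/db and db/+ (95% interval -0.36 to 0.40) and by -0.64 between KO_db/db and db/db (95% interval -1.11 to -0.16, adjusted p = 0.166).

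Cpe, the carboxypeptidase that trims the basic residues, was at 3754, 3749 and 4524 CPM in db/+, at 5117 and 6009 CPM in db/db, and at 4388 and 4851 CPM in KO_db/db. The db/db libraries were highest for Cpe too, and KO_db/db overlapped the lean group. The log2 difference in db/db against db/+ was 0.45 ± 0.18 SE (adjusted p = 0.0881). Cpe was called in DESeq2 (adjusted p = 0.00941), without TMM factors (adjusted p = 0.00532) and without db/+ mouse 3 (adjusted p = 0.0420). KO_db/db differed from db/+ by 0.21 (adjusted p = 0.407) and from db/db by -0.26 (adjusted p = 0.567) on the log2 scale. Per 1000 insulin counts there were 9.96 to 11 counts of Cpe in db/+, 25.9 and 33.7 in db/db, and 16.1 and 23.8 in KO_db/db. For Pcsk2 these values were 11.7 to 14.2, 23.9 and 27.1, and 18.3 and 23.8, whereas for Pcsk1 they were 1.93 to 2.61, 2.70 and 3.04, and 1.83 and 2.6. In proportion to insulin transcripts, Cpe and Pcsk2 were thus higher in all 4 obese libraries than in the lean ones, and Pcsk1 in the db/db libraries only.

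Scg5, Pam, Cpe and Pcsk2 are also used by the other endocrine cells of the islet. The α-cell markers (8 genes, of which 7 were tested) summed to 1314 to 2037 CPM in db/+, 2337 to 2734 CPM in db/db and 1363 to 1767 CPM in KO_db/db. This is the order of Scg5 and Pam, but it lay in Ttr, a transthyretin gene that was at 1727 and 1925 CPM in db/db and at 502 to 674 CPM in the other libraries. Glucagon (Gcg) was at 351 and 608 CPM in db/db, 378 to 1178 CPM in db/+ and 620 and 1017 CPM in KO_db/db. Of the 7 markers, 2 rose and 1 fell in db/db against db/+, and none was at 0 in all libraries. The δ-cell markers (6 genes) summed to 208 to 283 CPM in db/db, 451 to 2395 CPM in db/+ and 621 to 739 CPM in KO_db/db, with 1 higher and 2 lower in db/db than in db/+. The PP-cell markers (5 genes) summed to 434 to 1105 CPM in db/db, 186 to 604 CPM in db/+ and 705 to 936 CPM in KO_db/db. Of the 4 tested in db/db against db/+, 1 was higher and 1 lower. Aqp4 alone was at 485 and 78.5 CPM in db/db. The part of α-, δ- and PP-cells in the values of Scg5 and Pam was not tested. Gcg, Ttr and Aqp4 are named here after their values were seen.

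Sytl4, the gene of granuphilin, showed the largest fold change of the members in both comparisons with db/+. It was at 383, 334 and 278 CPM in db/+, at 64.1 and 68.7 CPM in db/db, and at 155 and 125 CPM in KO_db/db. The 3 groups did not overlap, with KO_db/db in between. Sytl4 was 5.09-fold lower in db/db than in db/+ (log2 fold change -2.35 ± 0.17 SE, adjusted p = 0.000492) and 2.36-fold lower in KO_db/db than in db/+ (-1.24 ± 0.18 SE, adjusted p = 0.00310), and both calls held in all 13 alternatives. KO_db/db exceeded db/db by 1.09 on the log2 scale (95% interval 0.68 to 1.5), with an adjusted p of 0.0844 in edgeR. This difference passed in DESeq2 (adjusted p = 1.26e-06), without the filter on low counts (adjusted p = 0.000425) and with all 7 libraries in one fit (adjusted p = 0.0229).

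**Figure D3:**
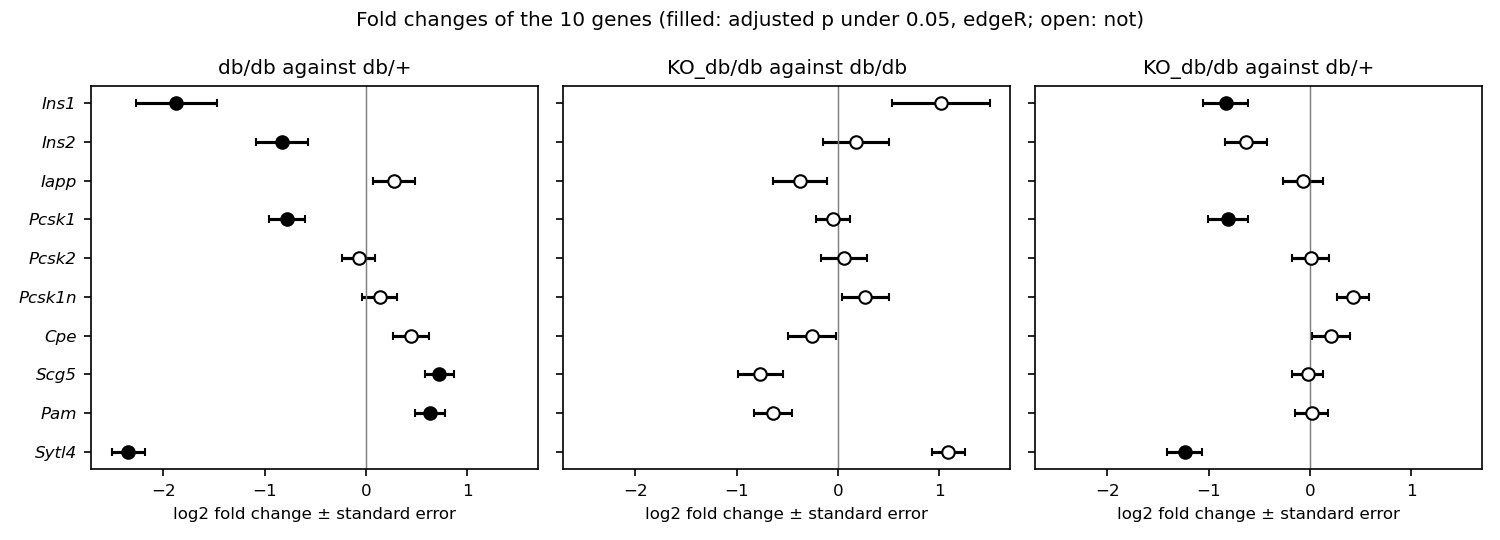
Log2 fold changes of the 10 genes (horizontal axis) with standard errors in the 3 comparisons, from edgeR fits of 2 groups each; filled points have an adjusted p under 0.05. There are 6 filled points in db/db against db/+, none for KO_db/db against db/db, and 3 for KO_db/db against db/+, all of them below 0.

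Scaling bore on several of these directions. Without TMM factors, db/db against db/+ gave -0.34 for Ins2 (adjusted p = 0.315) and -0.29 for Pcsk1 (adjusted p = 0.213), neither called, and 0.63 for Pcsk1n (adjusted p = 0.0226) and 0.42 for Pcsk2, in a fit where the typical gene stood at 0.50. Relative to that median, Ins2 was at -0.84, Pcsk1 at -0.78, Pcsk1n at 0.13 and Pcsk2 at -0.08, close to the TMM values. This closeness is built in, because TMM factors place the typical gene near 0, and it adds no support to the calls. Ins1, Sytl4, Scg5 and Pam kept their direction and call. In KO_db/db against db/+ the same scaling gave -0.65 for Ins1 (adjusted p = 0.129) and -0.59 for Pcsk1 (adjusted p = 0.142), neither called, which is -0.86 and -0.80 relative to the median, and Sytl4 kept its call. With TMM factors, the call of Ins1 in KO_db/db against db/+ was also lost in the fit of all 7 libraries (adjusted p = 0.110), and that of Ins2 in db/db against db/+ without the filter on low counts (adjusted p = 0.0744).

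The gene models lie apart in the genome, on GRCm38 with GENCODE annotation. Ins1 spans chr19:52264297-52265476 (plus strand), and Ins2 chr7:142678656-142743381 (minus strand). Iapp spans chr6:142298423-142303961 (plus strand), with Slco1a5 on the opposite strand. Pcsk1 spans chr13:75089826-75134861 (plus strand) and Pcsk2 chr2:143546156-143816285 (plus strand), the latter with the antisense genes Pcsk2os1 and Pcsk2os2. Pcsk1n spans chrX:7919822-7924410 (plus strand), with Eras on the opposite strand. Cpe spans chr8:64592542-64693054, Scg5 chr2:113776362-113829121, Pam chr1:97795114-98095646 and Sytl4 chrX:133936385-133981812, all on the minus strand, and Pam shares its span with small RNA genes, a processed transcript, a pseudogene and a locus that the annotation leaves to be characterised. Whether counting used strand is not given in the sources used here, so reads of overlapping opposite genes cannot be told apart with certainty. Slco1a5 was at 0.511 to 1.84 CPM and Eras was listed at 0 in all 7 libraries, both negligible beside Iapp and Pcsk1n.

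Promoter windows from RefSeq (GRCm38.p6, 250 bases before to 50 after an annotated start site) were found for 8 of the 10 members, in 9 windows. They were searched on both strands for TATAAA (the TATA box), TAAT (the core of the A boxes that PDX1 binds), CATCTG (the E box of the insulin genes), TGACG (a part of the cyclic AMP response element) and TGCAGC (the start of the C1 element of the insulin genes). The 250 bases before the start are shown for Ins1 and Pcsk1, which fell in both groups of Lepr db/db mice, and for Iapp, which did not, with matches in capitals (Ins1, chr19:52264047-52264296; Pcsk1, chr13:75089607-75089856; Iapp, chr6:142298175-142298424, all plus strand).
Ins1: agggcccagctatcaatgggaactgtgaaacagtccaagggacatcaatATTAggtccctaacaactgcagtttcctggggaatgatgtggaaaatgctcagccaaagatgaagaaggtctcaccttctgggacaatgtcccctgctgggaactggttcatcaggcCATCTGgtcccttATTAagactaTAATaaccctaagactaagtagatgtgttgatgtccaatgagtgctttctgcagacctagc
Pcsk1: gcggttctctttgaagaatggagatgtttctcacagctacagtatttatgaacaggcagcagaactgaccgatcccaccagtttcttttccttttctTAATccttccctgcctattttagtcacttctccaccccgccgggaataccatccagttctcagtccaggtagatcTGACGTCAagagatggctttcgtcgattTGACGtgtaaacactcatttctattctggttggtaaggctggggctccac
Iapp: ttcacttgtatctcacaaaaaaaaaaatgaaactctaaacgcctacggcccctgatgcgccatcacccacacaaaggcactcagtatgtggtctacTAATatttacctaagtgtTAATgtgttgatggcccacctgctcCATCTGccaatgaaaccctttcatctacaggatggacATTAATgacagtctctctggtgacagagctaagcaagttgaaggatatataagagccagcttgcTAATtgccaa
In the full window Ins1 held CATCTG 2 times, TAAT 3 times and TGCAGC 1 time. TGCAGC and 1 match of the E box lay after the annotated start, at base 52264297, while the coding sequence begins at base 52264624. Where transcription began in these cells was not tested, so the side of these matches depends on the annotation. Iapp held CATCTG 1 time and TAAT 5 times. Pcsk1 held TGACG 3 times, of which a forward and a reverse match overlap in a full palindromic element, and TAAT 1 time. Scg5 also held TGACG 3 times and TAAT 1 time, Pcsk1n held TAAT 3 times, Pcsk2 held TGACG 1 time, and neither window of Pam held a match. Sytl4 held TGCAGC 1 time, after its annotated start. Of all 32851 windows, 58.0% held TAAT, 17.2% CATCTG, 20.8% TGACG, 20.7% TGCAGC and 13.6% TATAAA. No member window held TATAAA as an exact match, and looser forms of the TATA box were not searched. The Ins1 window ended at base 52264346, and the bases from there to the coding sequence were not searched either. Letters that match are a description of these windows only.

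Around the members, 6 lists of other genes of the pathway were examined, 71 genes in all. In db/db against db/+, 37 of the 63 tested were called, 14 higher and 23 lower, where 37.8% of all genes tested were called. Without TMM factors this turned to 29 higher and 4 lower. Their median log2 fold change was -0.17, beside 0.01 over all genes. With KO_db/db against db/+, 31 of 63 were called, 14 higher and 17 lower, where 38.4% of all genes tested were called, and without TMM factors 14 were higher and 1 was lower. Between KO_db/db and db/db none of 64 was called in edgeR, 15 had an unadjusted p under 0.05, and DESeq2 called 5.

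Subunits of the V-ATPase, the proton pump that acidifies the granule, were the list with the most lower genes. In db/db against db/+, 13 of 19 fell and none rose, with a median log2 fold change of -0.53. Atp6v1a, a catalytic subunit, fell from 132 ± 12.3 CPM (SD, n = 3) in db/+ to 58.4 ± 9.45 CPM (SD, n = 2) in db/db (log2 fold change -1.20 ± 0.14 SE, adjusted p = 0.00159). Atp6v1b2 went from 300.4 ± 23.4 to 149 ± 11.1 CPM (-1.04 ± 0.12 SE, adjusted p = 0.00158). The knockout against db/+ had 11 of 19 lower, among them Atp6v1a (-0.97) and Atp6ap1 (-0.67), and Atp6v0a1 rose (0.54), with a median of -0.43. The count of V-ATPase calls in KO_db/db against db/+ was 7 without KO_db/db mouse 1. Without TMM factors 3 subunits rose and 2 fell in db/db, and 1 rose and 1 fell in KO_db/db, with list medians at -0.54 and -0.41 relative to the shifted medians of all genes, so the direction is one relative to the typical gene.

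Among other proprotein convertases, Furin, which cuts precursors in the trans-Golgi network, rose from 38.5 ± 2.2 CPM in db/+ to 89.5 ± 22.8 CPM in db/db (log2 fold change 1.19, adjusted p = 0.00266) and to 95.4 ± 21.0 CPM in KO_db/db (1.32, adjusted p = 0.00144). Of the 6 tested, 2 rose and 1 fell in db/db, and 2 rose in KO_db/db. Mbtps1, the site-1 protease, fell in db/db (-0.64, adjusted p = 0.00383), and Pcsk6 rose in KO_db/db (1.06, adjusted p = 0.00524). Of the relatives of Cpe, Cpd, a carboxypeptidase of the Golgi, rose in db/db (1.16, adjusted p = 0.00124) and in KO_db/db (0.87, adjusted p = 0.00117). Cpn1 rose in both as well (0.94 and 0.46), and Cpm fell in db/db (-0.77, adjusted p = 0.0245). That made 2 higher and 1 lower of 4 tested in db/db, and 2 higher of 3 in KO_db/db.

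Of the genes for other peptide modification and turnover, 4 rose and 1 fell of 10 in db/db against db/+, and 2 rose and 1 fell of 11 in KO_db/db against db/+. Tpst2, a tyrosylprotein sulfotransferase, rose in both (0.67 and 0.59), Qpctl, a glutaminyl cyclase, rose in db/db (0.66), and Ctsl, a lysosomal protease, rose in db/db (0.47, adjusted p = 0.0223) and in KO_db/db (0.37, adjusted p = 0.0405). Bace2, a protease of the β-cell, fell in both, from 423 ± 42.9 CPM in db/+ to 235 ± 27.1 CPM in db/db and 244 ± 10.5 CPM in KO_db/db (-0.88 and -0.79, adjusted p = 0.00468 and 0.00614).

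Among the genes for other synaptotagmin-like proteins and for the Rab27 and Rab3 docking machinery, 5 rose and 2 fell of 15 in either comparison with db/+. Rab27a, which encodes the main partner of granuphilin, was at 204 to 222 CPM in db/+, 212 and 221 CPM in db/db and 214 and 241 CPM in KO_db/db, and so did not share the fall of Sytl4. Exph5, a Rab27 effector, rose in both (0.82 and 1.01), as did Rab3b (0.90 and 0.95) and Sytl1 (0.53 and 1.07). Rph3al, which encodes the effector Noc2, fell in both (-0.88 and -0.44), as did Rab8a (-0.49 and -0.37). Rab27b was called higher in both comparisons with db/+ (4.54 and 3.44). It was low throughout, at 0.103 to 0.123 CPM in db/+, near the limit of detection, 2.46 and 3.00 CPM in db/db, and 0.896 and 1.58 CPM in KO_db/db. Rab27a and Rab27b are named after their values were seen.

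Of 9 transcription factors of the insulin genes, 5 fell and 1 rose in db/db against db/+, and 3 fell and 2 rose in KO_db/db against db/+. Mafa, which binds the C1 element, went from 386 ± 52.6 CPM in db/+ to 75.4 ± 24.4 CPM in db/db (log2 fold change -2.38 ± 0.24 SE, adjusted p = 0.00109). It was at 382 CPM in both KO_db/db libraries, with a log2 difference of -0.01 from db/+ (adjusted p = 0.960). The log2 difference of Mafa from db/db was 2.35 ± 0.26 SE, which narrowly failed the test in edgeR (adjusted p = 0.0538). In that comparison 1 of the 9 factors was called higher without TMM factors, and 0 with RLE factors. The paper reports more MafA in knockout than in db/db β-cells, both in its own comparison of the RNA-seq data and by qPCR. It also reports more MAFA protein in knockout islets by immunostaining. Pdx1 fell in db/db (-0.83, adjusted p = 0.00426) and in KO_db/db (-0.57, adjusted p = 0.01), as did Nkx6-1 (-0.83 and -0.85, adjusted p = 0.0180 and 0.00590). Rfx6 rose in both (0.53 and 0.39), and Glis3 rose in KO_db/db (1.48, adjusted p = 0.00680) with a wide spread (128 ± 55.1 CPM, SD, n = 2). Without TMM factors this list had 1 lower and 2 higher genes in db/db, and its median relative to that of all genes was -0.60.

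**Figure D4:**
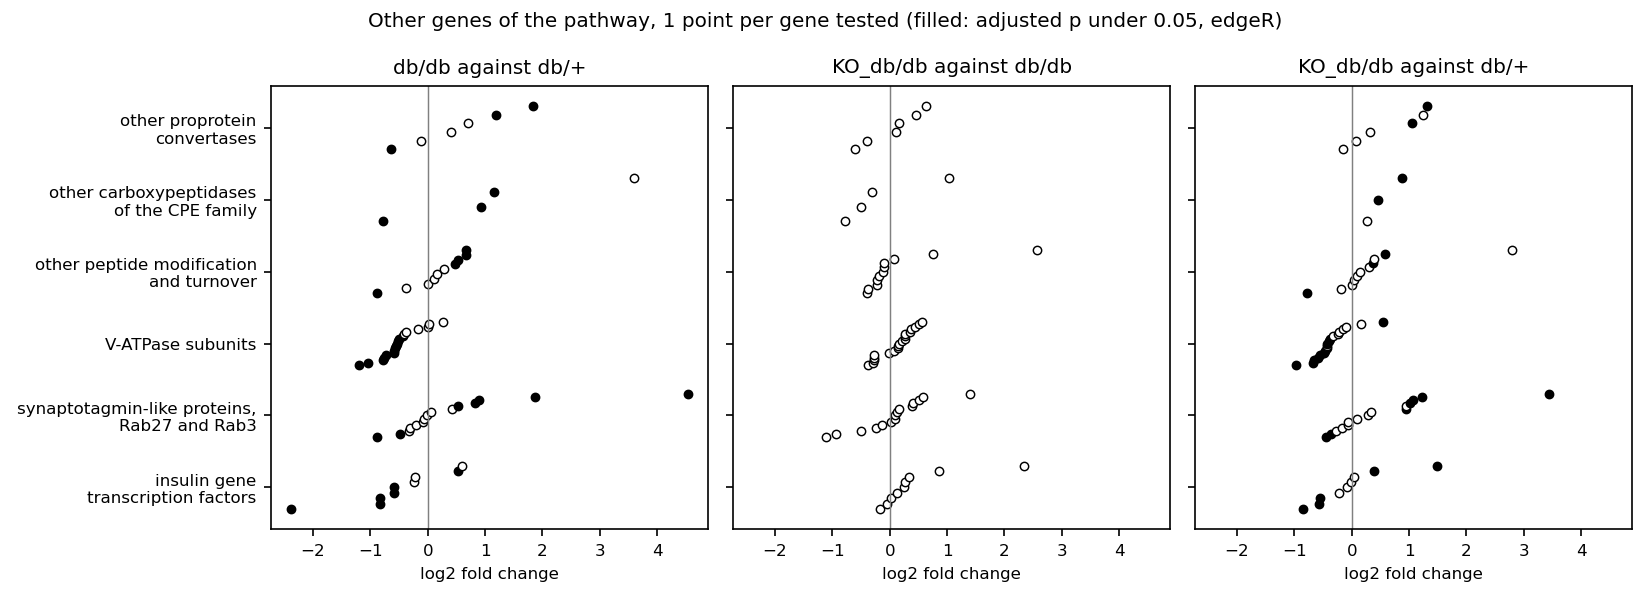
Log2 fold changes (horizontal axis) of the genes tested in 6 lists of other pathway genes, in the 3 comparisons; each point is 1 gene and filled points have an adjusted p under 0.05. The V-ATPase points lie mostly below 0 against db/+ (13 and 12 of 19 filled), and no point is filled in KO_db/db against db/db.

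The genes whose log2 levels ran most alike to a member over the 7 libraries, among 7812 genes of at least 10 CPM on average, are given by Pearson's r as a description. The libraries fall into the 3 groups and share the scaling, so a high r says only that the levels moved alike. For Ins1 they included Phkb (0.995) and Gfpt1 (0.988), and for Ins2 they were Cyp20a1 (0.992), Mrpl23-ps1 (0.991) and Sdr39u1 (0.988). For Iapp they were Fbxl20 (0.977), Azi2 (0.965) and Clk1 (0.961), and for Pcsk1 Morf4l2 (0.989), D8Ertd738e (0.986) and Slc33a1 (0.985). For Pcsk2 they were Evi5 (0.924), Prmt1 (0.919) and Mocs2 (0.860).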

How the data were processed

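Polyadenylated RNA of sorted β-cells was sequenced with Illumina TruSeq chemistry. Per the labels and the study's methods, the authors demultiplexed reads with bcl2fastq 2.19 and pseudoaligned them with kallisto 0.44.0 to GRCm38, and the deposited table holds estimated counts per gene symbol. The annotation release and the gate used for these libraries are not given in the sources used here. Estimated counts were taken as deposited, rounded to whole numbers, and columns were assigned to mice by the labels.

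Each pair of groups was fitted in edgeR 4.0.16 (R 4.3.3; quasi-likelihood test, TMM factors, filterByExpr with a minimum count of 10, Benjamini-Hochberg adjustment, threshold 0.05). All 10 members passed the filter in each comparison. DESeq2 1.42.0, other scalings, no filter, a stricter threshold of 0.01, a fit of all 7 libraries, a replicate block and leave-one-out fits were alternatives. Where 1 library remained in a group, it was assumed to vary like the others. Ratios were compared by two-sided exact permutation tests (scipy 1.17.1). The fits were tested on simulated counts, with a single dispersion for all genes and, apart from the changed genes, the same composition in every library. The real libraries differed in composition, as the acinar shares show, so that test does not measure how reliable the calls are. No pair of replicates agreed within sampling noise.

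The members, gene lists and comparisons were chosen with earlier results of these data known. Named pathway genes were, of each list and comparison, up to 2 that rose most and 2 that fell most among those called with at least 10 CPM on average. Gene models came from GENCODE vM21, to which 34222 of the 35013 symbols matched, and cleavage sites were found by translating its coding sequences. Promoters came from RefSeq. P-values of the fits rest on the spread between 2 or 3 mice per group, with dispersions moderated across the genes tested. The total of 27496645 to 35852785 counts limits counting error only. Of the genes with levels most like those of Ins1, 1 is not reported here.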

Additional observations from a re-analysis of the deposited data

How the results depend on the processing

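Depth limited none of the 10 genes, whereas several calls rested on single libraries, as named above. Ratios kept their direction in all 88 alternative values, and of the members' log2 fold changes 352 stayed on their side of the threshold, 17 passed it newly, 26 no longer passed and 15 reversed. For members called in KO_db/db against db/db (0), DESeq2 gave 3, no filter 1 and all 7 libraries in one fit 1, and each leave-one-out fit gave 0. For db/db against db/+ (6), leave-one-out fits gave 3 to 7 and a threshold of 0.01 gave 2. For KO_db/db against db/+ (3), total counts without factors gave 1, DESeq2 5, the threshold of 0.01 gave 1 and leave-one-out fits 1 to 4. For the 6 pathway lists, KO_db/db against db/db (0) gave 1 with total counts, 5 with DESeq2, 2 without the filter, 4 with all libraries in one fit and 0 to 1 in leave-one-out fits; db/db against db/+ (37) gave 22 at 0.01 and 25 to 36 in leave-one-out fits; KO_db/db against db/+ (31) gave 15 with total counts, 17 at 0.01 and 20 to 28 in leave-one-out fits.

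None of the reversed log2 fold changes passed the test. With total counts they were -0.10 for Ins2 and -0.20 for Pcsk2 in KO_db/db against db/db, 0.42 for Pcsk2 in db/db against db/+, and 0.15 for Iapp and 0.21 for Scg5 in KO_db/db against db/+. Leave-one-out fits that reversed a sign ranged from -0.042 to 0.38 for Ins2 in KO_db/db against db/db (negative without KO_db/db mouse 1) and from -0.10 to 0.33 for Pcsk1n in db/db against db/+ (negative without db/db mouse 2). In KO_db/db against db/+ they ranged from -0.16 to 0.015 for Iapp, -0.067 to 0.060 for Pcsk2, -0.13 to 0.072 for Scg5 and -0.068 to 0.11 for Pam. The cause was not tested.

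Same-numbered libraries showed no sign of pairing, as their deviations correlated at -0.05, -0.09 and 0.08. These correlations used mice 1 and 2 of each group only, so they cannot settle whether the libraries were paired. With the replicate block the counts of members called were 0, 6 and 3, those of all genes 22, 4516 and 3786 (43, 5069 and 5081 without it), and in KO_db/db against db/+ Iapp was at 0.018, Pcsk1 was not called (adjusted p = 0.0841) and Ins2 was (adjusted p = 0.0430). In KO_db/db against db/db, all genes called numbered 1396 in DESeq2, 1570 without the filter, 818 with all 7 libraries in one fit and 1220 with total counts.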
